A study of Homo sapiens with 6 samples.

Results

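Open chromatin on human chromosomes 5, 7, 10 and 20 was described in Nthy-ORI cells, an immortalised line from normal thyroid follicular epithelium, as 3 lists of ATAC-seq peaks. All peaks on these 4 chromosomes were taken. They were 2197 of 7103 peaks in the vehicle list, 3703 of 12385 in the list after 6 h of T3 and 13619 of 60661 in the list after 24 h of T3, or 30.9%, 29.9% and 22.5% of each list. The chromosomes were chosen by a measured value, the number of peaks per Mb in these lists, so a high density on them is a description and not a result. Where along the chromosome the peaks lie, and how the arms compare, was not itself used in that choice. A chromosome with a sparse arm is less likely to reach a high density, so the arm comparisons are not independent of it.

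All cells had spent 24 h in hormone-stripped medium before they received the NaOH vehicle, labelled 6 h, or 10 nM T3 (triiodothyronine, the active thyroid hormone) for 6 or 24 h. Each group had 2 samples and is represented by 1 list, which the authors made from both. Without a vehicle at 24 h among the samples used here, the effects of hormone and of time cannot be told apart in the 24 h list. The lists carry no read counts, so depth is unknown, and a region without a peak is not shown to be closed. Of all autosomal protein-coding genes 1.36%, 11.3% and 61.8% had a peak at a gene end in the vehicle, 6 h and 24 h lists. Of 7 thyroid follicular marker genes it was 0, 1 and 4, near that background at 24 h; those of TG and SLC5A5, which serve thyroid hormone synthesis, had none in any list. Of 4 fibroblast markers 0, 0 and 3 had one, among them VIM on chromosome 10 (a cytoskeletal filament gene) and PDGFRB on chromosome 5 (a growth factor receptor). Of 5 epithelial markers 0, 1 and 3 had one, of 3 endothelial markers 0, 0 and 1, and of 2 leukocyte markers 0, 0 and 1. These groups are too small to be read as apart from the background.

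ATAC-seq reads come from places where the Tn5 transposase reaches the DNA, mostly promoters and enhancers. The reads of a place also scale with the number of DNA copies in the cell, so extra copies of a chromosome arm bring more reads, and more peaks past a calling threshold, along the whole of that arm. Immortalised lines often carry gains or losses of whole chromosomes or arms. A change of this kind has borders at the centromere or the chromosome end, and one of a whole chromosome gives no step between its arms. The comparison asked whether the peak density steps at the arm border. The DNA copy number of these cells was not measured here, and its part in any value below was not tested.

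A peak was called a gene-end peak if the mean of its replicate summits lay within 1 kb of either boundary of a RefSeq protein-coding gene, and distal otherwise. To show what a strong gene-end peak sits on, the promoter under the strongest 24 h gene-end peak of each chromosome is printed, as the 250 bases before the start site from RefSeq (GRCh38.p14), 5′ to 3′ on the gene's strand. They belong to RIMOC1 (chr5:41904094-41904343, plus strand), a partner of the RAB7A activating complex; POT1 (chr7:124929826-124930075, minus strand), a telomere-binding protein; TCTN3 (chr10:95693928-95694177, minus strand), a protein of the cilium base that shares its peak with ENTPD1; and RALGAPA2 (chr20:20712645-20712894, minus strand), which inactivates Ral GTPases. Capitals mark matches, on either strand, to the AP-1 motif TGANTCA, the CCAAT box CCAAT, the ETS motif CCGGAAG or the hormone receptor motif AGGTCA.
RIMOC1: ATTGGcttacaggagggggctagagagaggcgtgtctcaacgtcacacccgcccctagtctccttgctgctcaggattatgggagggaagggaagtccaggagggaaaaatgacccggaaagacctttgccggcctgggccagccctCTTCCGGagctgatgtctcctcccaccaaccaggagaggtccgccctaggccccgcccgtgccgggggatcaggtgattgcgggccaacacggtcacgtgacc
POT1: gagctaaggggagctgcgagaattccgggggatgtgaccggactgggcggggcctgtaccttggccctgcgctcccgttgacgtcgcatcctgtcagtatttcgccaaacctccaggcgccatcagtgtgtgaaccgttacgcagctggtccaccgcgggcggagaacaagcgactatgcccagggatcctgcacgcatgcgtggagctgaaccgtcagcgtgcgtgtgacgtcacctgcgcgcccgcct
TCTN3: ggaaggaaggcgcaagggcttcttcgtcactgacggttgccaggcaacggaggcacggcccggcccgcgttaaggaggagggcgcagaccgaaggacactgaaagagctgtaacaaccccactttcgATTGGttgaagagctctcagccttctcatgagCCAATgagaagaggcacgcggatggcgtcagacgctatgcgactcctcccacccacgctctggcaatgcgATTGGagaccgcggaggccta
RALGAPA2: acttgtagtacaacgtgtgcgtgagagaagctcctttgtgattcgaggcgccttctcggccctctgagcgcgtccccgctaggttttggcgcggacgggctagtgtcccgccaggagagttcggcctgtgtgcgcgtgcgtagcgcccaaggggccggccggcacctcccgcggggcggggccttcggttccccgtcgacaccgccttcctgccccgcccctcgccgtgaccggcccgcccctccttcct

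The summits lay 185, 157, 98 and 235 bp upstream of the start sites, inside the printed stretches. RIMOC1 held 1 CCAAT box and 1 ETS motif, TCTN3 held 3 CCAAT boxes, and the windows of POT1 and RALGAPA2 held none of the 4 motifs. Of 35116 promoters in the table, 32.01% held a CCAAT box, 8.52% the ETS motif, 12.1% AGGTCA and 6.57% the AP-1 motif. These matches describe letters only. The 4 peaks had summed signals of 42.9, 46.5, 43.9 and 48.1, each above 99.8% of the 24 h list.

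Each chromosome was split into arms at the gene-free stretch around its centromere, called the gap here: chr5:45696381-50396191, chr7:57868450-63011462, chr10:38719383-42149318 and chr20:26251589-28580632 (hg38). The gaps themselves held many peaks. In the vehicle list 60 of 520 peaks on chromosome 5 lay in the gap (11.5%), 206 of 652 on chromosome 7 (31.6%), 230 of 576 on chromosome 10 (39.9%) and 202 of 449 on chromosome 20 (44.99%). Over the 4 chromosomes gap peaks were 31.8% of the vehicle list, 11.5% at 6 h and 2.31% at 24 h. The other autosomes had 39.8%, 13.8% and 2.10%, so the gaps of the 4 chromosomes did not hold a larger share in the first 2 lists. The gap of the acrocentric autosomes among the others takes in their whole short arm, so these stretches are not alike.

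Gap peaks also differed in form from those in the arms. In vehicle the median distance between their replicate summits was 27 bp, while distal peaks of the same chromosomes had 251 bp, and their median width was 926 bp against 1366 bp. They recurred: 52.9% of the vehicle gap peaks were shared with the 6 h list (overlap of at least 50% of the shorter peak), against 20.2% of the distal peaks (95% interval 18.2 to 22.4). How reads map in these repeat-rich stretches was not examined. All values below leave the gaps out.

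In the arms the 4 chromosomes held 1429 distal peaks in vehicle, 2826 at 6 h and 11347 at 24 h. These are 2.73, 5.40 and 21.7 peaks per Mb, beside 1.18, 2.68 and 16.3 on the other 18 autosomes. The ratios were 2.31 (exact 95% interval 2.17 to 2.47), 2.01 (1.92 to 2.11) and 1.33 (1.30 to 1.36). Intervals here and below cover counting error only. The denser chromosomes were not those with most genes: the 4 carry 5.92 protein-coding genes per Mb and the others 7.34. Per gene instead of per Mb, the ratios came to 2.86, 2.49 and 1.65.

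Per Mb of the full lists, chromosome 20 stood above the other 3. Its distal density was 3.89 per Mb in vehicle, 7.55 at 6 h and 30.02 at 24 h, or 3.29, 2.81 and 1.84 times that of the other autosomes. It is also the only one of the 4 with more genes per Mb (8.66) than the other autosomes. Chromosome 5 stood lowest per Mb, with ratios of 2.08, 1.71 and 1.14. Chromosome 7 had 2.31, 2.05 and 1.29 and chromosome 10 had 2.16, 1.995 and 1.41, so these overlapped in their intervals in vehicle and at 6 h. The order at 24 h rests on the full list. With that list cut to the length of the vehicle list by summed signal, chromosome 20 had 1.38, below chromosome 7 (1.52) and chromosome 5 (1.40). Cut by the second replicate column it was lowest, with 1.14 (0.93 to 1.39) beside 1.26 to 1.44, and by the first it was highest, with 1.62. Per gene its ratios of 2.79, 2.38 and 1.56 were not the highest of the 4 in any list, where chromosome 5 led in vehicle with 3.02 and chromosome 10 at 6 h and 24 h with 2.60 and 1.84.

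Part of the vehicle excess on chromosome 20 sits beside its centromere. Between the gap and the next 5 Mb border, at chr20:28580633-30000000, lay 36 of the 141 distal vehicle peaks of 20q, which is 25.4 per Mb. With the chromosome ends and the bins beside the gap left out, 20q fell from rank 1 of 39 arms to rank 4 of 38 in vehicle, with 2.52 peaks per Mb, and 20p held rank 1 with 3.53. The density of 20p over 20q, 0.97 on the whole arms, was then 1.40 (0.95 to 2.05). In the 24 h list this stretch held 28 of 1163 peaks, and 20q led the inner bins too, with 31.8 per Mb.

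**Figure D1:**
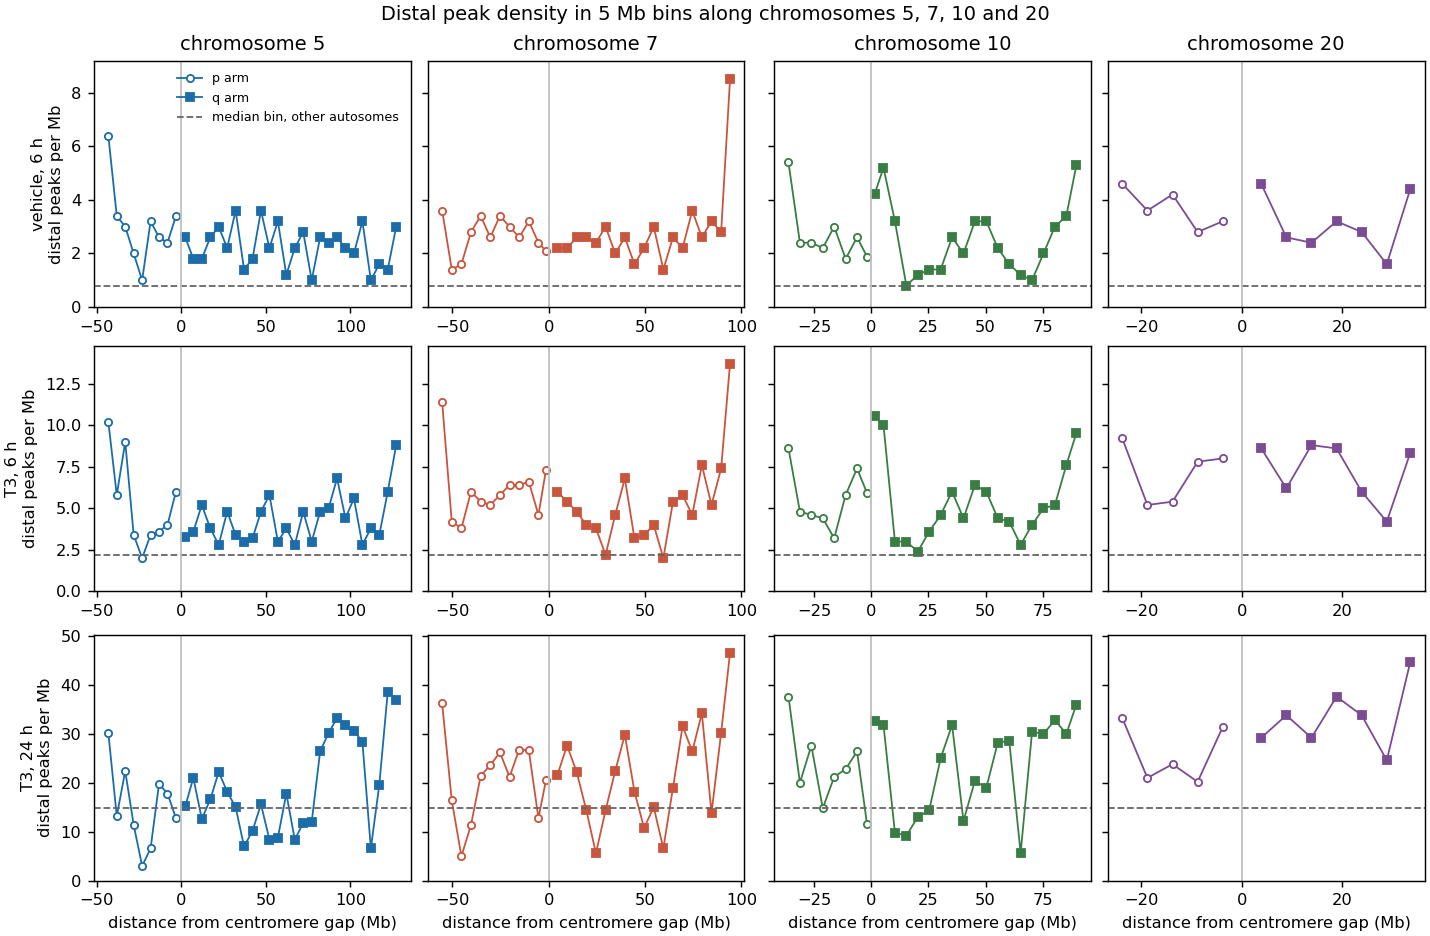
Distal peaks per Mb (y axis) in 5 Mb bins against the distance of the bin's middle from the centromere gap (x axis, Mb), for each chromosome (columns) and list (rows); open circles are p-arm bins, filled squares q-arm bins, and the dashed line is the median bin of the other autosomes. In vehicle 104 of the 105 bins lie above that line, and the highest vehicle point of chromosomes 5, 7 and 10 is an end bin.

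Bins of 5 Mb showed how far the excess extends along each chromosome. In vehicle 86 of the 105 bins on the 4 chromosomes held over 1.5 times the median bin of the genome (1.20 distal peaks per Mb), against a background of 35.9% of all 537 bins. At 6 h it was 71 of 105, with a background of 30.7%, and at 24 h 45 of 105, with a background of 27.2%. The same density chose the chromosomes, so these counts describe only its reach. Bins more than 1.5 times below the median numbered 0, 0 and 14 of 105, where the backgrounds were 33.5%, 35.2% and 27.7%. Above the median bin of the other autosomes lay 104, 102 and 74 of the 105 bins.

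The excess thus covered nearly every bin of all 4 chromosomes in vehicle and at 6 h, with no bin called low. At 24 h it was patchy on chromosomes 5, 7 and 10, where 8, 3 and 3 bins were called low and 9, 12 and 14 high. On chromosome 20 the 24 h list had 10 of 12 bins high and 0 low. Its sparsest 24 h bin, chr20:15000001-20000000, held 20.2 distal peaks per Mb, above the genome's median bin of 15.6.

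Away from the ends and the gap, the vehicle peaks of chromosomes 5, 7 and 20 were spread nearly evenly. Over inner bins of full size, without ends and gap neighbours, chromosome 7 held 12.8 ± 2.99 peaks per bin (mean and SD over 27 bins, range 7 to 18). The variance divided by the mean was 0.70 there; pure counting of a constant density gives a value near 1. It was 1.31 on chromosome 5 (31 bins), 1.06 on chromosome 20 (only 8 bins) and 2.18 on chromosome 10 (23 bins). The median over the other 18 autosomes was 2.90 (0.99 to 8.60). At 24 h the same ratio was 23.7 on chromosome 5, 17.1 on chromosome 7, 15.9 on chromosome 10 and 7.65 on chromosome 20, around the median of 20.3 elsewhere. This ratio grows with the number of peaks per bin, so it cannot be compared between lists. The SD as a share of the mean went from 33.8% in vehicle to 51.9% at 24 h on chromosome 5 and from 23.4% to 41.6% on chromosome 7, but from 43.5% to 38.03% on chromosome 10 and from 27.1% to 23.4% on chromosome 20. Counting error makes up more of this share where bins hold few peaks. The mean per bin was 11.5 in vehicle and 110 at 24 h on chromosome 10, and 14.5 and 140 on chromosome 20. The falls on these chromosomes therefore do not show a more even spread at 24 h.

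Both arms of each of the 4 chromosomes took part in the excess, which the choice by density makes more likely. In vehicle 20q (3.94 per Mb), 20p (3.81) and 5p (2.998) were the 3 densest of 39 arms, and all 8 arms were among the first 12. The arms next to them that belong to other chromosomes were 22q (2.84), 17p (2.82), 21q (2.73) and 12p (2.66), so these arms were as dense as those of chromosomes 7 and 10. 5q closed the group with 2.27. At 24 h the arms of chromosome 20 ranked 1 and 3, while 5p had dropped to rank 28 with 15.03 per Mb.

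The short and the long arm of the same chromosome differed little. On chromosome 7 the vehicle list held 156 distal peaks in the p arm and 264 in the q arm, which are 2.70 and 2.74 per Mb and a p to q ratio of 0.98 (0.80 to 1.20). Chromosome 10 gave 1.11 (0.87 to 1.40) and chromosome 20 gave 0.97 (0.74 to 1.26). On chromosome 5 the p arm was denser, with 2.998 against 2.27 per Mb and a ratio of 1.32 (1.07 to 1.62). Without the end bins and the bins beside the gap it was 1.13 (0.88 to 1.44), whose interval includes 1. All 4 p arms carry fewer genes per Mb than their q arms, by ratios of 0.61, 0.78, 0.67 and 0.69 for chromosomes 5, 7, 10 and 20; the peak ratios of chromosomes 7 and 20 lay below 1 too, and those of 5 and 10 above it.

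The arm ratio of chromosome 5 turned between the full lists. It was 1.19 (1.02 to 1.38) at 6 h, with the p arm denser, and 0.76 (0.70 to 0.83) at 24 h, with the q arm denser. Without end bins and bins beside the gap the 6 h ratio was 1.07 (0.88 to 1.28), so the denser p arm was not kept, and the 24 h ratio was 0.72 (0.65 to 0.79). Chromosome 20 also had a denser q arm at 24 h, with a ratio of 0.82 (0.74 to 0.90), beside 0.97 at 6 h. Chromosome 7 had 1.16 (1.01 to 1.34) at 6 h and 0.98 at 24 h, and chromosome 10 had 1.06 and 1.01. The lists differ in length; with the 24 h list cut to the length of the vehicle list by signal, the chromosome 5 ratio was 0.77 (0.59 to 0.997). The 24 h ratio of chromosome 20 became 1.26 when the list was cut by its second replicate column, and the 6 h ratio of chromosome 7 became 0.97 with replicate summits within 100 bp, so these 2 directions did not hold.

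Other autosomes had far more unequal arms. Of 13 other autosomes with 2 arms, 8 differed over 1.5-fold between arms in vehicle, 8 at 6 h and 3 at 24 h. In the full lists 0 of the 4 did. The choice by density leaves less room for a sparse arm among the 4, so this contrast is partly set by that choice. The others also held fewer peaks per Mb, so counting error weighs more in their arm ratios. Chromosome 8, 1 of the 8 in vehicle, held 19 peaks in the p arm and 68 in the q arm. Its p to q ratio was 0.63 (0.36 to 1.06), an interval that includes equal density. The median ratio of the denser to the sparser arm was 1.97, 1.60 and 1.28 on these 13 and 1.07, 1.11 and 1.12 on the 4. The most unequal in vehicle was chromosome 6, with 1.703 peaks per Mb in the p arm and 0.26 in the q arm, 6.54-fold apart. Chromosome 3 had 0.20 in the p arm and 0.90 in the q arm, and chromosome 4 had 1.63 and 0.42. The 1.5-fold count on the 4 rests on the full list: with peaks of an IDR of at most 0.01 alone the vehicle ratio was 1.73 on chromosome 5 and 0.56 on chromosome 20.

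**Figure D2:**
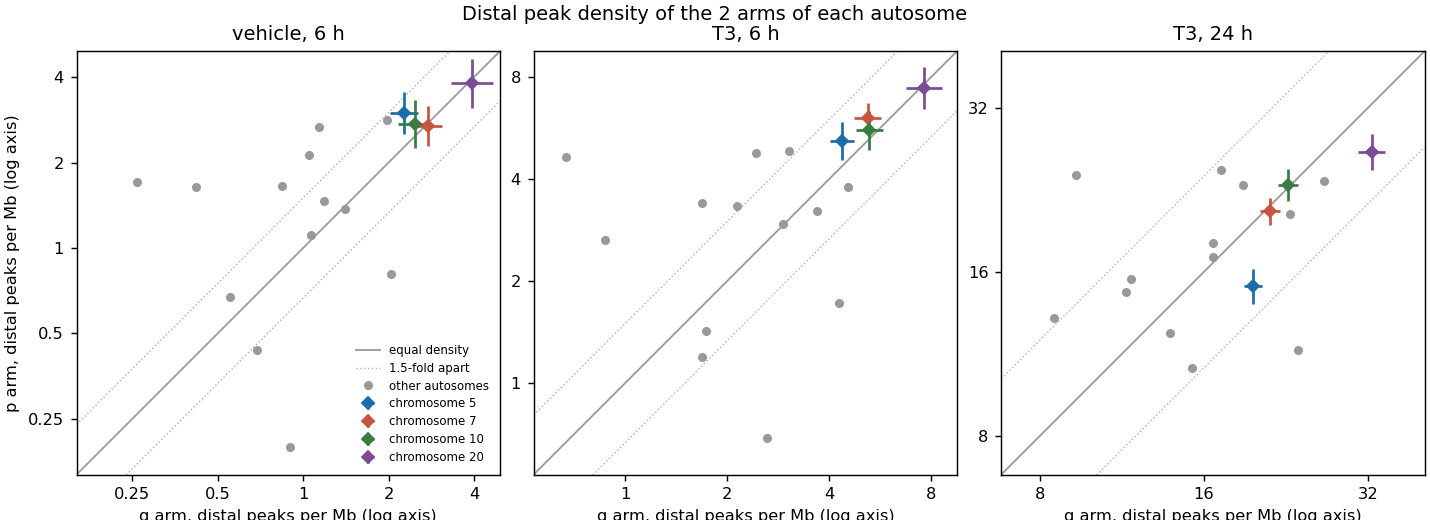
Distal peaks per Mb of the p arm (y axis) against the q arm (x axis), both on log axes, for the 4 chromosomes (coloured diamonds, bars are exact 95% Poisson intervals) and the 13 other autosomes with 2 arms (grey points); the solid line marks equal density and the dotted lines a 1.5-fold difference. The 4 chromosomes lie between the dotted lines in all 3 lists and at the dense end in vehicle.

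If density steps followed the arms, the border that best separates high from low bins would be the centromere. For each chromosome all bin borders were tried, and the share of the sum of squares of log2 bin density that a border removes was recorded. Density here was distal peaks per Mb, or gene-end peaks per protein-coding gene of the bin. The best border was at the centromere on 0 of the 4 chromosomes in every list, for distal and for gene-end peaks. Among the 13 others it was there on 5 in vehicle, 2 at 6 h and 0 at 24 h, for distal peaks. For gene-end peaks it was there on 1 of the 13 in vehicle and on 0 at 6 h and 24 h. For distal peaks the centromere removed on average 5.39%, 2.41% and 8.77% of the sum of squares on the 4 chromosomes. On the others it removed 19.9%, 22.4% and 11.9%. For gene-end peaks the means were 13.2%, 6.88% and 9.52% on the 4 and 4.58%, 7.39% and 3.16% on the others. The 4 thus had the larger gene-end share in vehicle and at 24 h, the reverse of distal peaks. In vehicle, however, the arms of the 4 held only 70 gene-end peaks, over 105 bins. The value of a bin without such a peak depends on its gene number alone. The vehicle gene-end splits therefore cannot be told from a split by gene number. The number of best borders at the centromere stayed at 0 of 4 with bins of 2 Mb or 10 Mb and with bins shifted by 2.5 Mb. This held for distal peaks in all 3 lists. Set against bins with a like number of genes, the distal shares were 16.7%, 14.8% and 3.59% on the 4. They were 17.8%, 21.5% and 9.11% on the others, so the vehicle values came close together. The choice of dense chromosomes leaves less room for a sparse arm, so these contrasts are not independent of it.

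For distal peaks the best borders of the 4 lay 1 to 17 bins from the centromere. On chromosome 5 the border lay at 10 Mb in vehicle, where the outer bins were denser, at 15 Mb at 6 h, and at 130 Mb at 24 h, where density rose by 0.99 on the log2 scale toward the q end. On chromosome 7 it lay at 150 Mb in vehicle and at 6 h and at 130 Mb at 24 h. Chromosome 10 had 55, 125 and 110 Mb and chromosome 20 had 35, 50 and 20 Mb, of which the first and the last lay 1 bin from the centromere. Only chromosome 7 kept its border between the first 2 lists. With 12 bins, chromosome 20 offers little room for any split, and its centromere removed 30.3% at 24 h, the most of the 4. That value was 6.55% with 2 Mb bins, 6.13% with shifted bins and 1.24% against bins with a like number of genes. In vehicle the centromere of chromosome 20 removed 12.3%, but 51.2% with 10 Mb bins and 40.7% against like bins, so the share on this chromosome depends on the bins used.

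Gene-end and distal peaks had the same best border on chromosome 7 at 6 h (150 Mb) and on chromosome 20 at 24 h (20 Mb), and different ones elsewhere. At both shared borders they stepped in opposite directions on the log2 scale. These are unlike measures, because distal peaks are counted per Mb and gene-end peaks per gene. A change in gene number can thus move them apart. On chromosome 7 the step was 1.01 for distal and -1.82 for gene-end peaks, and on chromosome 20 it was 0.43 and -0.50. At 6 h on chromosome 5 the best gene-end border removed 55.0%, at 10 Mb, with bins beyond it higher by 3.19 on the log2 scale; the distal border at 15 Mb went the other way, by -0.996. The outermost bins of 5p thus held many distal peaks per Mb and few gene-end peaks per gene. The 5p end bin held 51 distal peaks at 6 h, and 0 of its 30 genes had a gene-end peak.

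Density was high at the chromosome ends. The 2 end bins of chromosome 7 held 5.85 distal peaks per Mb in vehicle against 2.53 inside, a ratio of 2.31 (1.701 to 3.08). It was 2.01 on chromosome 5, 2.29 on chromosome 10 and 1.45 (1.01 to 2.05) on chromosome 20. Over all 4, ends exceeded inner bins 2.06-fold in vehicle, 1.99-fold at 6 h and 1.83-fold at 24 h. The ends of other autosomes showed 2.84, 2.38 and 1.72, so a rise toward the ends was seen there too.

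The genes around the densest 24 h bins were named by rule. On chromosome 7 the last bin, chr7:155000001-159235323, had 36, 58 and 197 distal peaks in vehicle, 6 h and 24 h, or 8.50, 13.7 and 46.5 per Mb. DNAJB6, a co-chaperone of HSP70, and VIPR2, a neuropeptide receptor, were the nearest genes of 13 of its 24 h peaks each, and INSIG1, which holds back sterol-regulated transcription factors in the endoplasmic reticulum, of 11. The first bin of 7p was next, with SDK1, an adhesion molecule (10 peaks), and PDGFA, a growth factor (8). VIPR2 was also nearest to 6 of the 36 vehicle peaks of its bin.

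Chromosome 20 had its densest bin at the q end too, chr20:60000001-64328088, with 19, 36 and 193 distal peaks. CDH4, a cadherin, was nearest to 16 of the 24 h peaks and had a gene-end peak at 6 h and 24 h. SLCO4A1, an organic anion transporter that also carries thyroid hormone, followed with 9, and NTSR1, the neurotensin receptor, with 7. In the next densest bin, chr20:45000001-50000000, PREX1, an activator of Rac, was nearest to 20 and EYA2, a developmental transcription cofactor, to 18. None of these 5 genes had a gene-end peak in vehicle.

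On chromosome 10 both end bins led. The p end, with 27, 43 and 188 distal peaks, had ADARB2, a brain-expressed relative of RNA editing enzymes (12 at 24 h), KLF6, a zinc-finger transcription factor (12), and DIP2C (11). DIP2C was nearest to 6 of the 27 vehicle peaks and 7 of the 43 at 6 h, and KLF6 to 0 and 3. The q end had INPP5A, a phosphatase of inositol phosphates (12), PPP2R2D, a subunit of phosphatase 2A (9), and JAKMIP3 (9).

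On chromosome 5 the 24 h list was densest at chr5:170000001-175000000, with 193 distal peaks, where vehicle had 7 and the 6 h list 30. NEURL1B, a ubiquitin ligase of Notch ligand trafficking, was nearest to 15, and ERGIC1, a protein cycling between endoplasmic reticulum and Golgi, and CPEB4, a regulator of mRNA translation, to 13 each. The last bin of 5q followed with 15, 44 and 185, among them 18 at ADAMTS2, which trims procollagen. The vehicle value of the first of these bins, 1.40 per Mb, was among the lower ones of chromosome 5, so the bin that led at 24 h did not lead in vehicle. Over the 35 bins of chromosome 5 the vehicle and 24 h densities had a Spearman rho of 0.20 (bins share a chromosome and a library; no test).

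The sparsest 24 h bins with at least 5 genes lay inside the arms. The bin chr7:10000001-15000000 held 25 distal peaks at 24 h and 8 in vehicle, with ETV1, an ETS transcription factor, nearest to 5. The bin chr5:160000001-165000000 held 33 and 5, with CCNJL, a cyclin-like gene, nearest to 7. On chromosome 10 the bin chr10:55000001-60000000 held 46 and 4, with BICC1, an RNA-binding protein, nearest to 8 and TFAM, which packs and transcribes mitochondrial DNA, to 4.

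Density was then set against gene number. In vehicle the distal density of the 105 bins hardly followed the number of protein-coding genes in a bin (Spearman rho 0.16), whereas on the 432 bins of the other autosomes rho was 0.43. At 6 h rho was 0.39 and 0.48, and at 24 h 0.68 and 0.71. Neighbouring bins and bins of 1 library are not independent, so these values are descriptions without a test. In 5 classes by gene number, the poorest bins of the 4 chromosomes (2 to 14 genes) held 2.27 distal peaks per Mb in vehicle and the richest (50 to 98 genes) 2.87. On the other autosomes the poorest held 0.60 and the richest 1.76.

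The excess over bins with a like number of genes was thus greatest where genes were few. At 24 h the density rose from 12.3 to 31.9 per Mb across the classes on the 4 chromosomes and from 7.73 to 25.9 on the others, so both followed gene number. The median bin of the 4 held 2.33 times the mean of like bins elsewhere in vehicle, 2.04 times at 6 h and 1.32 times at 24 h. By chromosome the vehicle medians were 2.33, 2.18, 2.33 and 2.56 for 5, 7, 10 and 20, and the 24 h medians 1.28, 1.32, 1.39 and 1.49.

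**Figure D3:**
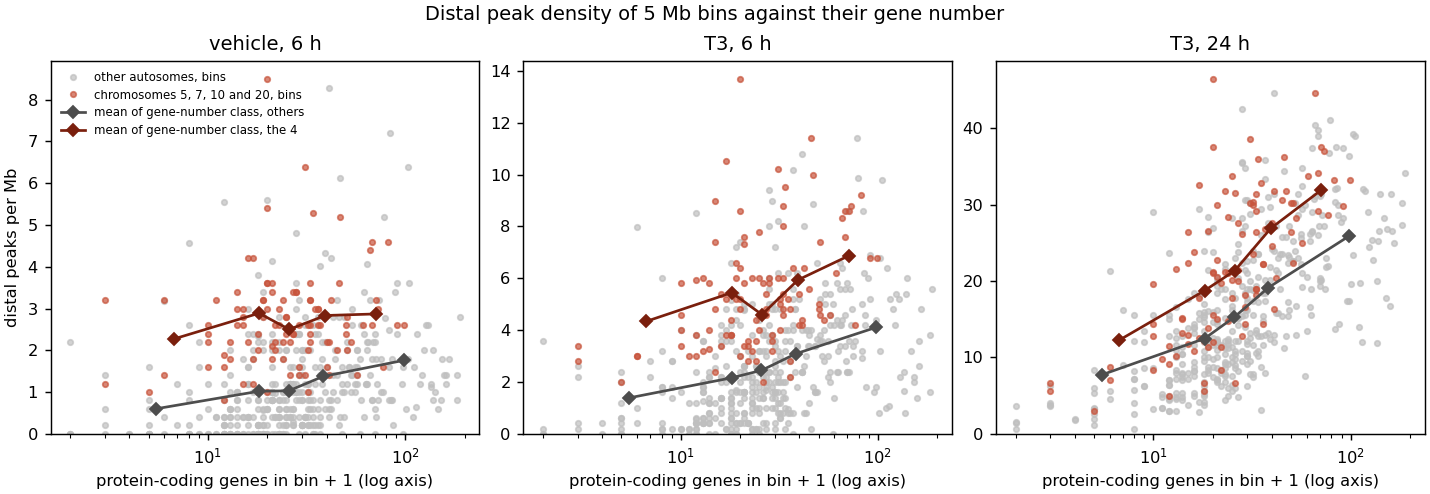
Distal peaks per Mb (y axis) of each 5 Mb bin against its number of protein-coding genes plus 1 (log x axis), for the 4 chromosomes (red) and the other autosomes (grey); diamonds are class means, placed at the geometric mean of the lowest and highest gene number of each of 5 classes. In vehicle the red line runs from 2.27 to 2.87 and the grey line from 0.60 to 1.76; at 24 h both rise steeply.

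Gene-end peaks give a readout that is already counted per gene. In vehicle 74 of 3100 genes on the 4 chromosomes had a gene-end peak (2.39%, exact interval 1.88 to 2.99), beside 1.16% (1.0 to 1.34) on the other autosomes and a background of 1.36% of all autosomal genes. At 6 h it was 528 (17.03%, 15.7 to 18.4), beside 10.1% and a background of 11.3%. At 24 h it was 1986 (64.1%, 62.3 to 65.8), beside 61.4% and a background of 61.8%. The share of genes on the 4 was thus 2.06, 1.68 and 1.04 times that of the others. In each list this was below the ratio of distal densities. A share of genes has an upper limit and a density has none, so these ratios are unlike measures, above all at 24 h. The 24 h value of 1.04 also depends on list length. With that list cut to the length of the vehicle list it was 1.31 by summed signal, 1.39 by the first replicate column and 1.27 by the second. The distal density ratios were then 1.42, 1.503 and 1.31.

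By chromosome the order differed from that of distal peaks. Chromosome 20, densest in distal peaks, had 7 of 537 genes with a vehicle gene-end peak (1.30%, 0.53 to 2.67) and 78 at 6 h (14.5%, 11.7 to 17.8). Chromosome 5, lowest in distal peaks, had 26 of 894 (2.91%, 1.91 to 4.23) in vehicle and 197 at 6 h (22.04%, 19.4 to 24.9), the highest of the 4. Chromosome 7 had 2.99% and 15.2% and chromosome 10 had 1.77% and 15.1%. In the 24 h list the 4 lay between 61.9% and 66.0%.

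The arms of chromosome 5 parted at 6 h. On 5q 175 of 737 genes had a gene-end peak (23.7%, 20.7 to 27.0), the highest share of the 39 arms, and on 5p 22 of 157 (14.01%, 8.995 to 20.4). The clustered protocadherin genes of 5q, which encode adhesion molecules, were left out in turn: without the 53 of them the 5q share was 167 of 684 (24.4%). This alternative was chosen after the values were seen. The distal density at 6 h went the other way, with 5.19 per Mb on 5p and 4.37 on 5q. On 7p and 7q the 6 h shares were 16% and 14.8%, on 10p and 10q 17.4% and 14.5%, and on 20p and 20q 14.4% and 14.6%.

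**Figure D4:**
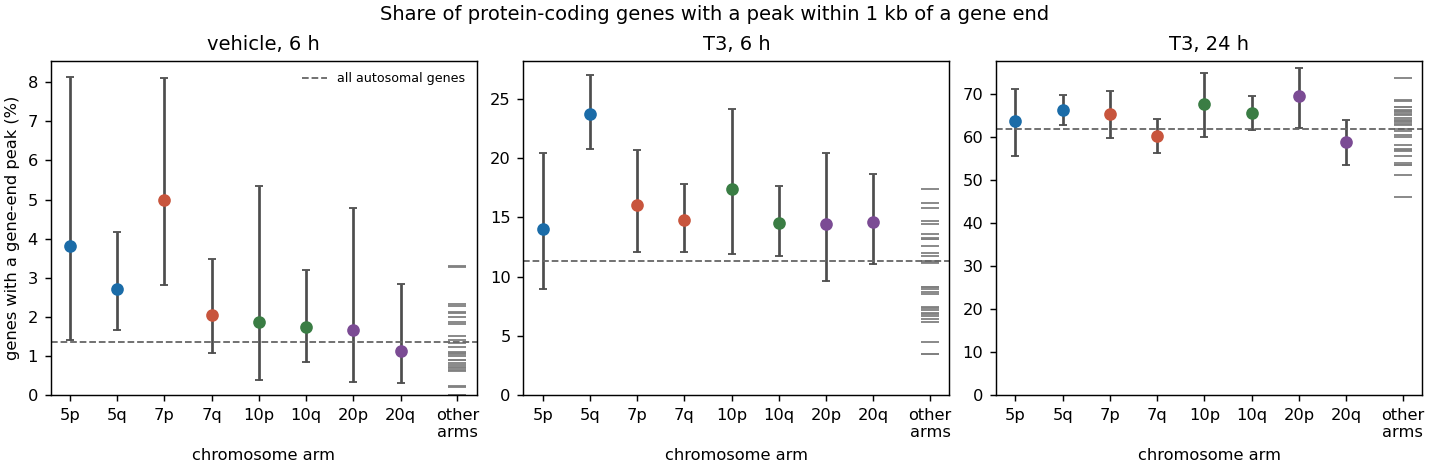
Share of protein-coding genes with a peak within 1 kb of a gene end (y axis, percent) on each arm of the 4 chromosomes (points with exact 95% intervals) and on the other arms (grey dashes), in the 3 lists; the dashed line is the share of all autosomal genes. At 6 h 5q stands highest at 23.7%, and at 24 h the arms of the 4 lie among the others.

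The strongest gene-end peaks differed in kind between lists. In vehicle they lay at ICE1 on 5p, a subunit of a complex for small nuclear RNA transcription, ZNF736 on 7q, a zinc-finger gene, TDRD1 on 10q, a germline piRNA factor, and TGM6 on 20p, a transglutaminase. Their summed signals of 12.7, 13.3, 13.5 and 13.5 placed them above 83.6% to 86.6% of the vehicle list. At 6 h they lay at PCDHB5, the shared promoter side of ANKMY2 and BZW2, TIAL1, an RNA-binding protein, and ZFP64, a zinc-finger transcription factor, at percentiles of 93.96 to 97. The replicate summits of ANKMY2 and BZW2 lay 1366 bp apart, so this peak's position is poorly set. In the 24 h list the peaks named above with their promoters stood above 99.8%, with replicate summits 9 to 69 bp apart.

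A list of 76 growth and thyroid genes on the 8 arms showed how familiar loci appear in these lists. It was written with earlier results of these data known and supports nothing by itself. Of the 76, 2 had a gene-end peak in vehicle, 11 at 6 h and 63 at 24 h, where the backgrounds are 1.36%, 11.3% and 61.8% of all autosomal genes. The 2 in vehicle were EGFR, the epidermal growth factor receptor, and AHR, the dioxin receptor, both on 7p. EGFR had signals of 9.58 in vehicle and 16.8 at 24 h and no gene-end peak at 6 h; its replicate columns read 3.43 and 6.15 in vehicle. AHR had peaks in all 3 lists, of 10.1, 10.2 and 22.9. Signals are not comparable between lists, because their scaling is not stated.

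The 11 at 6 h were SKP2 on 5p (signal 15.5), CDK1 on 10q (9.42), PCNA on 20p (11.4), AURKA on 20q (10.05), EGR1 and FGF1 on 5q, AHR on 7p, CREB3L2 on 7q, ZEB1 and SUFU on 10p and 10q, and TOP1 on 20q. SKP2, CDK1, PCNA and AURKA act in the cell cycle, but so do CCNB1, CDK6, E2F1 and MYBL2 of the same list, which had no gene-end peak at 6 h. At 24 h the highest signals in the list were those of CDK1 (39.6), its partner cyclin CCNB1 on 5q (36.1), the mitotic kinase AURKA (38.4) and SKP2 (37.1), a ubiquitin ligase subunit; E2F1 and MYBL2 had 13.4 and 10.3. The 13 genes without a 24 h gene-end peak included TERT, the telomerase subunit, NR3C1, the glucocorticoid receptor, CDK6, a cell-cycle kinase, and SRC.

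By arm, 6 of 7 listed genes had a 24 h gene-end peak on 5p and 9 of 11 on 5q, 8 of 10 on 7p and 8 of 10 on 7q, 7 of 8 on 10p and 9 of 11 on 10q, and 5 of 6 on 20p and 11 of 13 on 20q. Of all genes on these arms 58.8% to 69.4% had one, and the listed genes of an arm are too few to compare arms. Distal peaks nearest to a listed gene numbered 39, 83 and 444 in the 3 lists. EGFR had the most at 24 h (27, with 0 in vehicle and 5 at 6 h), followed by ZMIZ1 on 10q, a transcription coactivator (22), and NRP1 on 10p, a coreceptor of vascular growth factor (18). GLI3 on 7p, a Hedgehog transcription factor, had 1, 8 and 14 distal peaks and no gene-end peak in any list.

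The single distal peaks of the 4 chromosomes had much the same strength and shape as those elsewhere in the first 2 lists. In vehicle their median summed signal was 9.68 against 9.63, their median width 1366 bp against 1314 bp, and 32.4% against 33.0% had an IDR of at most 0.01. At 6 h the medians were 10.0 and 10.0 and these shares 27.5% and 27.6%. At 24 h they were weaker on the 4, with a median signal of 11.5 against 11.9, and 64.0% (63.1 to 64.9) against 67.7% (67.2 to 68.2) had an IDR of at most 0.01. Chromosome 20 stood lowest at 24 h, with 10.9 and 58.1%.

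**Figure D5:**
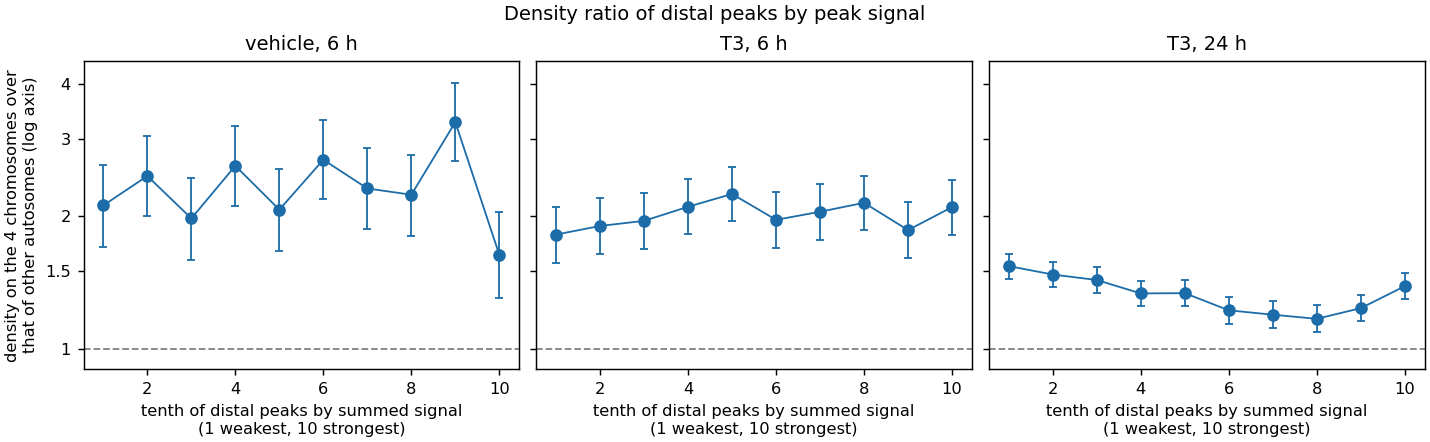
Distal density of the 4 chromosomes over that of the other autosomes (log y axis, exact 95% intervals) in each of 10 equal classes of distal peaks ranked by summed signal (x axis, 1 weakest to 10 strongest), for the 3 lists; the dashed line marks equal density. The ratio stays between 1.64 and 3.27 in vehicle and between 1.82 and 2.25 at 6 h, and falls from 1.54 to 1.17 before it rises to 1.39 at 24 h.

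Weak and strong distal peaks shared the excess in the first 2 lists. Across 10 equal classes of the vehicle list by summed signal the ratio lay between 1.64 in the strongest class and 3.27 in the class below it. At 6 h it lay between 1.82 and 2.25 without a trend by summed signal. By the first replicate column the 6 h ratio was 2.18 in the weakest class, 2.39 in class 2, 1.79 in class 9 and 1.90 in the strongest. By the second it was 1.87, 1.65, 2.24 and 1.98, so the columns differ at 6 h as well. By summed signal the 24 h ratio was 1.54 (1.45 to 1.65) in the weakest class, 1.17 (1.09 to 1.26) in class 8 and 1.39 (1.30 to 1.49) in the strongest. By the first replicate column the weakest 24 h class had 1.29 and the strongest 1.47, and by the second 1.78 and 1.29, so the 2 columns differ in where the 24 h excess lies. Of the vehicle distal peaks, 25.5% (23.3 to 27.9) on the 4 chromosomes were shared with the 24 h list, and 30.4% (28.6 to 32.2) elsewhere. With the 6 h list they shared 20.2% and 21.4%, so most distal peaks of the 4 chromosomes were found in 1 list only even though their density was high in all 3.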

How the data were processed

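ATAC-seq of 6 samples in 3 groups of 2 was analysed from 3 peak lists, 1 per group, which the authors made from both samples. Tools in the submitters' processing notes are CASAVA 1.7, MACS2, Bowtie2, Trim Galore and DiffBind, with hg38 as the build. Settings, Tn5 shift, duplicate and blacklist handling are not given in sources used here. Reads from repeats can pile up where mapping filters are lax, which bears on peaks near centromeres. Whether the samples of a group were separate cultures is not in the labels. The deposited score, 540 to 1000, is a scaled irreproducible discovery rate (IDR), and its −log10 as deposited put all peaks at 0.05 or below. Deposited signals are summed over both replicates with unstated normalization and were used within a list only. Replicate columns carry no sample name. No counts are given, so depth and the precision it brings are unknown.

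A peak was placed at the mean of its replicate summits. Gene boundaries were RefSeq's, of GRCh38.p14; 153 protein-coding rows on other scaffolds were dropped, 10, 2 and 1 of them labelled for chromosomes 5, 7 and 10. The gap runs over the gene-free stretches of at least 0.5 Mb that lie within 3 Mb of the centromere. Centromere centres were entered by hand as whole-Mb positions, because cytoband borders were not available, so the arm borders are approximate. The 5 acrocentric autosomes count as 1 arm, and all of their short arm is counted as gap. Bins of 5 Mb were cut at the gaps, and those under 2.5 Mb left out. Log2 bin densities were distal peaks per Mb or gene-end peaks per gene. They used a pseudocount of 0.5 peaks and, for gene-end peaks, of 1 gene. A split needed at least 2 bins on each side. Densities carry exact Poisson, ratios exact conditional binomial and shares Clopper-Pearson 95% intervals. With 1 list per group there is no replicated value and no test. Distal peaks were assigned to the nearest gene end within 100 kb.

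Named genes were those nearest to most 24 h peaks in the 2 densest and the sparsest bin of each chromosome (up to 3 per bin; the text names the better known), the gene of the strongest gene-end peak per list, and members of a written list. The chromosomes, lists and rules were chosen with earlier results of these data known. Alternatives were a 2 kb window, stricter peaks, shorter lists, other bins and density per gene. Python 3.11.15, numpy 2.4.6, pandas 2.3.3, scipy 1.17.1 and matplotlib 3.10.9 were used, and the split, distance and interval code was tested on simulated data.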

Additional observations from a re-analysis of the deposited data

How the results depend on the processing

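No paired analysis was possible because each list was made from both replicates of its group, its columns carry no replicate number and there is no replicated value; leaving out a replicate was not possible for the same reason. A value is said to have moved when it left the 95% counting interval of the reported value, or, for the centromere share, which has no interval, when its first decimal changed. The density ratio of the 4 chromosomes was above 1 under all 24 list and setting combinations (1.26 to 2.86), and those of single chromosomes under all 96 (1.12 to 3.35). Of the 120 alternatives to the values over all 4 chromosomes and to the arm ratios, 68 did not move, 50 moved and 2 reversed. Of those to values of single chromosomes (densities, gene-end and centromere shares), 55 did not move and 137 moved; the cause was not tested, except that shorter lists hold fewer peaks at gene ends and a wider window more.

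With a 2 kb window the gene-end share was 3.23%, 19.9% and 71.9% in vehicle, 6 h and 24 h. With an IDR of at most 0.01 it was 0.74%, 6.16% and 59.1%, the 24 h density ratio 1.26, and the vehicle arm ratio 1.73 on chromosome 5 and 0.56 on chromosome 20. With replicate summits within 100 bp the gene-end share was 0.42%, 5.16% and 45.4%, and the density ratio 2.07 in vehicle and 1.26 at 24 h. The arm ratio was then 0.77 in vehicle on chromosome 7 and 0.97 at 6 h, where it reversed, and on chromosome 20 0.57 in vehicle and 0.71 at 6 h. With lists of vehicle length by summed signal the gene-end share was 10.2% and 21.1% at 6 h and 24 h, the 24 h density ratio 1.42 and the 24 h arm ratio 1.23 on chromosome 10 and 0.96 on chromosome 20. Ranked by the first replicate column these shares were 11.3% and 21.97%, the density ratio 1.91 and 1.503, and the arm ratio of chromosome 10 1.27 at 24 h. Ranked by the second, the shares were 8.45% and 19.8%, the 6 h density ratio 2.13, and the 24 h arm ratio 1.22 on chromosome 10, 0.89 on chromosome 7 and 1.26 on chromosome 20, which reversed. Under every one of these settings the gene-end share of the 4 stayed above that of the other autosomes, by 1.03 to 1.93 times.

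Per protein-coding gene the density ratio was 2.86, 2.49 and 1.65. Without end bins and bins beside the gap it was 2.51 in vehicle; the arm ratio of chromosome 20 was then 1.40 in vehicle and 0.68 at 24 h, an alternative for the arms that was chosen after seeing the data. For distal peaks the mean share removed at the centromere in vehicle, 6 h and 24 h was 1.30%, 1.04% and 2.77% with 2 Mb bins. With 10 Mb bins it was 19.04%, 6.14% and 8.54%, and with shifted bins 5.19%, 4.01% and 2.96%. Over bins with a like gene number it was 16.7%, 14.8% and 3.59%. Depth is unknown, so it cannot be said how it limits the lists.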
